A study of Homo sapiens with 16 samples.

Results

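The response of LN229 cells to the p38α inhibitor VX745 in regular culture was measured with 2 libraries treated with VX745 and 2 control libraries treated with the solvent DMSO, which are 4 of the 16 RNA-seq samples of the study. LN229 is an established human glioblastoma (GBM) cell line, and the regular condition is complete medium with serum in a standard incubator. The same experiment held 2 libraries each of regular culture with MK25, an inhibitor of the next kinase MK2, and of DMSO, VX745 and MK25 in a medium poor in nutrients under low oxygen (the ischemic condition). A further 4 libraries without DMSO or an inhibitor were not used here. All of these groups are 1 cell line, and the study's methods list a single working dose for each inhibitor without tying it to the RNA-seq cultures, whose duration of treatment is not given in the sources used here. The methods speak of independent experiments for in vitro work in general, but nothing states it for the 2 RNA-seq libraries of a group, so the p-values measure only the spread between these samples, which may be technical. The comparison asks which transcripts change with VX745 in cells outside the ischemic condition. Whether such a change runs through p38α alone was not tested.

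p38α is a stress-activated MAP kinase. It is switched on by the upstream kinases MKK3 and MKK6 (encoded by *MAP2K3* and *MAP2K6*) and passes the signal to MK2, MSK1, MSK2 and MNK kinases. The pathway is known for raising inflammatory transcripts, partly through transcription factors such as ATF2 and AP-1 and partly through MK2, which blocks the RNA-binding protein tristetraprolin and its relatives from destroying mRNAs with AU-rich elements in their 3′ UTR. In tumor cells the pathway sustains secretion of cytokines and chemokines.

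Few transcripts passed the test for VX745 in regular culture. Of 14024 genes listed, 47 (0.335%) passed the test at an adjusted p under 0.05 (limma, Benjamini-Hochberg over all genes), of which 25 (0.178%) were higher and 22 (0.157%) lower. At a fold change of at least 1.5, 14 genes (0.0998%) were called, 9 raised (0.0642%) and 5 lowered (0.0357%). The lowered genes included the inflammatory mediators *IL1A* and *CXCL8* and the stress cytokine *GDF15*, and *MAP2K6*, the kinase just above p38, was among the raised genes. At an unadjusted p under 0.05 there were 2075 genes (14.8%). With 2 libraries in each group, further small changes may have gone undetected.

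The counts depended on single libraries. Without regular DMSO replicate 1, 73 genes were raised and 70 lowered at 1.5-fold, and 346 passed the test at any fold. Without regular DMSO replicate 2 the counts were 3 and 5, without regular VX745 replicate 1 they were 4 and 3, and without regular VX745 replicate 2 they were 2 and 6. Of the 47 genes, 7 passed the test whichever of these 4 libraries was left out, namely *MAP2K6*, *DHRS3*, *LIF*, *CXCL8*, *FGFBP2*, *PTGS2* and *INTS3*. Another 33 passed only in 1 of the 4 reduced fits, and *SH3RF2* in none. Wherever a gene passed in only 1 reduced fit, it was the fit without regular DMSO replicate 1. The test had 19 further genes at an adjusted p between 0.05 and 0.06, with absolute log2 fold changes of 0.25 to 0.65, so the edge of the list is not sharp.

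**Figure D1:**
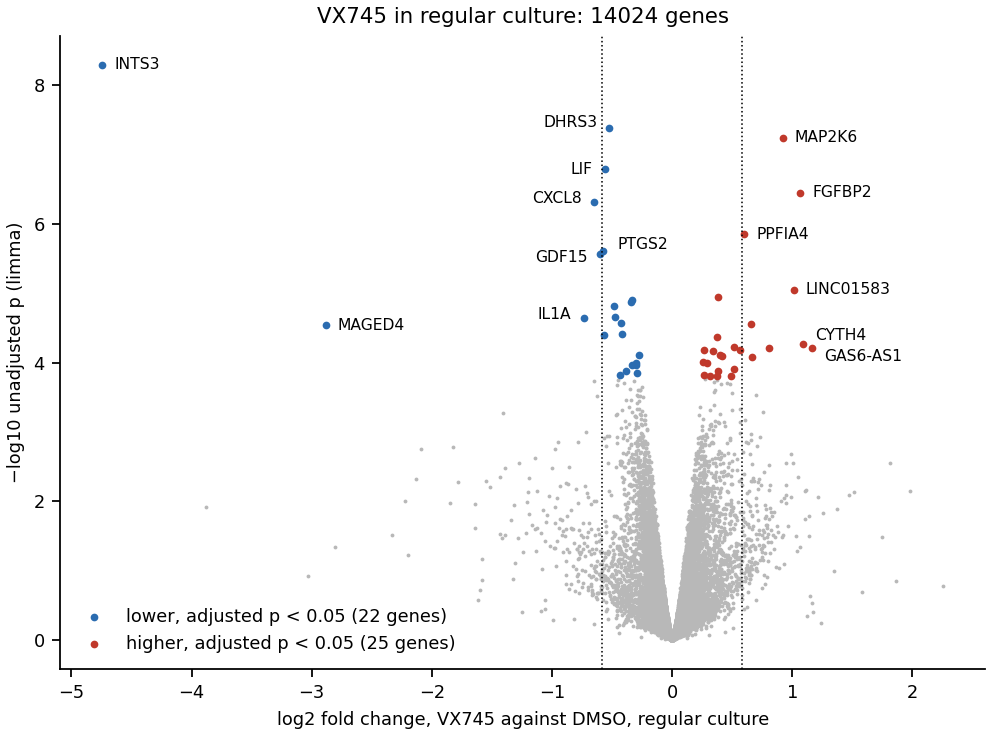
Each point is 1 of 14024 genes, with its log2 fold change between VX745 and DMSO in regular culture on the x axis and −log10 of its unadjusted p on the y axis, and dotted lines at a 1.5-fold change. The 47 genes past the test (blue lower, red higher) are few, and apart from *INTS3* and *MAGED4* they lie within 1.17 of 0 on the log2 scale.

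The rest of the transcriptome moved little. The mean over all 12 libraries reached 1 CPM in 13293 genes. Over these genes the standard deviation of the log2 fold changes was 0.190 for VX745 in regular culture, 0.281 for MK25 in regular culture and 0.317 for VX745 in ischemic culture. The median absolute log2 fold change was 0.0912, and the standard error of a gene had a median of 0.0843. For 11260 of these genes (84.7%) the 95% interval of the fold change lay wholly within 1.5-fold in either direction. Fold changes past 1.5 at any p were seen in 391 genes, of which 186 were among the 731 genes under 1 CPM. For comparison, 4051 genes (28.9%) passed the test for VX745 in ischemic culture and 1712 (12.2%) for MK25 in regular culture.

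**Figure D2:**
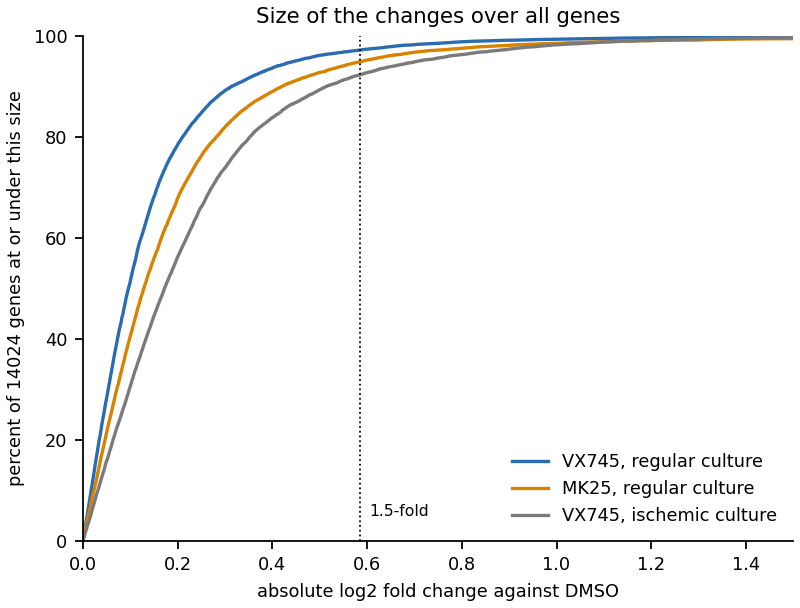
Each curve gives the percent of 14024 genes (y axis) whose absolute log2 fold change against DMSO of the same culture is at or under the value on the x axis, with a dotted line at 1.5-fold. The curve of VX745 in regular culture lies above the others, with 391 genes past 1.5-fold against 716 for MK25 in regular culture and 1081 for VX745 in ischemic culture.

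The 4 libraries held between 21529408 and 30228774 reads on the listed genes, and 3 reads, taken as the floor of detection, correspond to a log2 value between −2.59 and −2.29. The 2 DMSO libraries differed from each other by a chi-square of 8.19 per gene, the highest of the 6 groups, and the 2 VX745 libraries by 5.85, both beyond sampling noise. The libraries carried the markers of the line, with all 10 of the glioblastoma genes *VIM*, *CD44*, *NES*, *EGFR*, *SOX2*, *SOX9*, *CDK4*, *GFAP*, *OLIG2* and *PDGFRA* listed and their summed level between 4365 and 4698 CPM under DMSO and between 4466 and 4661 CPM under VX745. *GFAP* and *SOX9* were low, with at most 50 and 27 reads. None of 5 endothelial markers was listed, and 2 of 7 microglial markers were, at no more than 1.62 CPM in sum. No marker passed the test.

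Within the p38 cascade, 1 of 24 genes passed the test, and it was *MAP2K6*. Its level was 3.67 and 3.57 log2 CPM in the DMSO libraries and 4.52 and 4.56 in the VX745 libraries, so that the groups were far apart. The rise was 0.92 on the log2 scale (SE 0.10, 1.89-fold, adjusted p = 0.000268), and it held under every one of the 12 alternatives run for the gene, with values between 0.87 and 0.97. The gene lies at chr17:69414697-69553865 (GRCh38).

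No change of the target itself was detected at the RNA level. *MAPK14*, which encodes p38α, was at 6.24 and 6.21 under DMSO and 6.25 and 6.28 under VX745, and the 95% interval of its log2 fold change ran from −0.08 to 0.16. An inhibitor of kinase activity need not alter this transcript, so *MAPK14* checks nothing about the labels. *MAPKAPK2*, which encodes MK2, had an interval from −0.07 to 0.17, and *MAP2K3*, the other upstream kinase, one from −0.01 to 0.25. The remaining members ranged from −0.18 for *RPS6KA5* (MSK1) to 0.18 for *MAPK13* (p38δ), whose SE was 0.34 at a level near 1 CPM. The median of the 24 genes was 0.02, beside −0.01 over all genes.

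Secreted inflammatory factors had the most members past the test among the 20 lists of genes examined. Of 22 listed cytokines and mediators, 5 were lower past the test and none higher, beside 0.157% and 0.178% of all genes. Their median log2 fold change was −0.20, beside −0.006 over all genes. All 20 lists were chosen with earlier results of these data known, so counts in them are descriptions and not independent support. *CXCL8*, the neutrophil chemokine IL-8, was at 6.23 and 6.21 log2 CPM in the DMSO libraries and 5.61 and 5.54 in the VX745 libraries. That is a fall of 1.57-fold (log2 −0.65, SE 0.08, adjusted p = 0.00112). It was many times the spread within either group, which choosing genes past the test favors. *LIF*, a cytokine of the interleukin 6 family and the most abundant of the 5, was at 8.37 and 8.52 under DMSO and 7.85 and 7.92 under VX745. It fell by 0.56 on the log2 scale (SE 0.07, adjusted p = 0.000571).

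*IL1A*, which encodes interleukin 1α, was at 2.82 and 3.10 under DMSO and 2.35 and 2.10 under VX745 (log2 fold change −0.74, SE 0.13, adjusted p = 0.0197). The spread within each group was wider here, and the adjusted p was 0.28 without regular DMSO replicate 2 and 0.17 without regular VX745 replicate 2. *PTGS2*, the inducible cyclooxygenase COX-2 of prostaglandin synthesis, was at 2.67 and 2.54 under DMSO and at 2.02 and 2.04 under VX745 (−0.58, SE 0.08, adjusted p = 0.00422). *IL11*, a second interleukin 6 family cytokine, was at 6.33 and 6.41 against 6.08 and 6.06, a smaller fall of 0.30 (adjusted p = 0.0396), and it passed the test in only 1 of the 4 reduced fits, the highest adjusted p being 0.292. In each of these genes both treated libraries lay below both controls, which choosing genes past the test favors.

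The other members were not resolved. *CXCL1*, a chemokine close to *CXCL8*, was at 7.14 and 7.14 against 6.65 and 6.50, a log2 fold change of −0.56 with an adjusted p of 0.109. *CXCL3* had −0.36, *CCL2* −0.26 and *IL1B* −0.18, all with adjusted p-values of at least 0.277. *IL6* was barely expressed, and its 95% interval ran from −0.88 to 0.46. *TNFAIP3* and *NFKBIA*, feedback inhibitors of NF-κB, stood at 0.06 and −0.04.

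**Figure D3:**
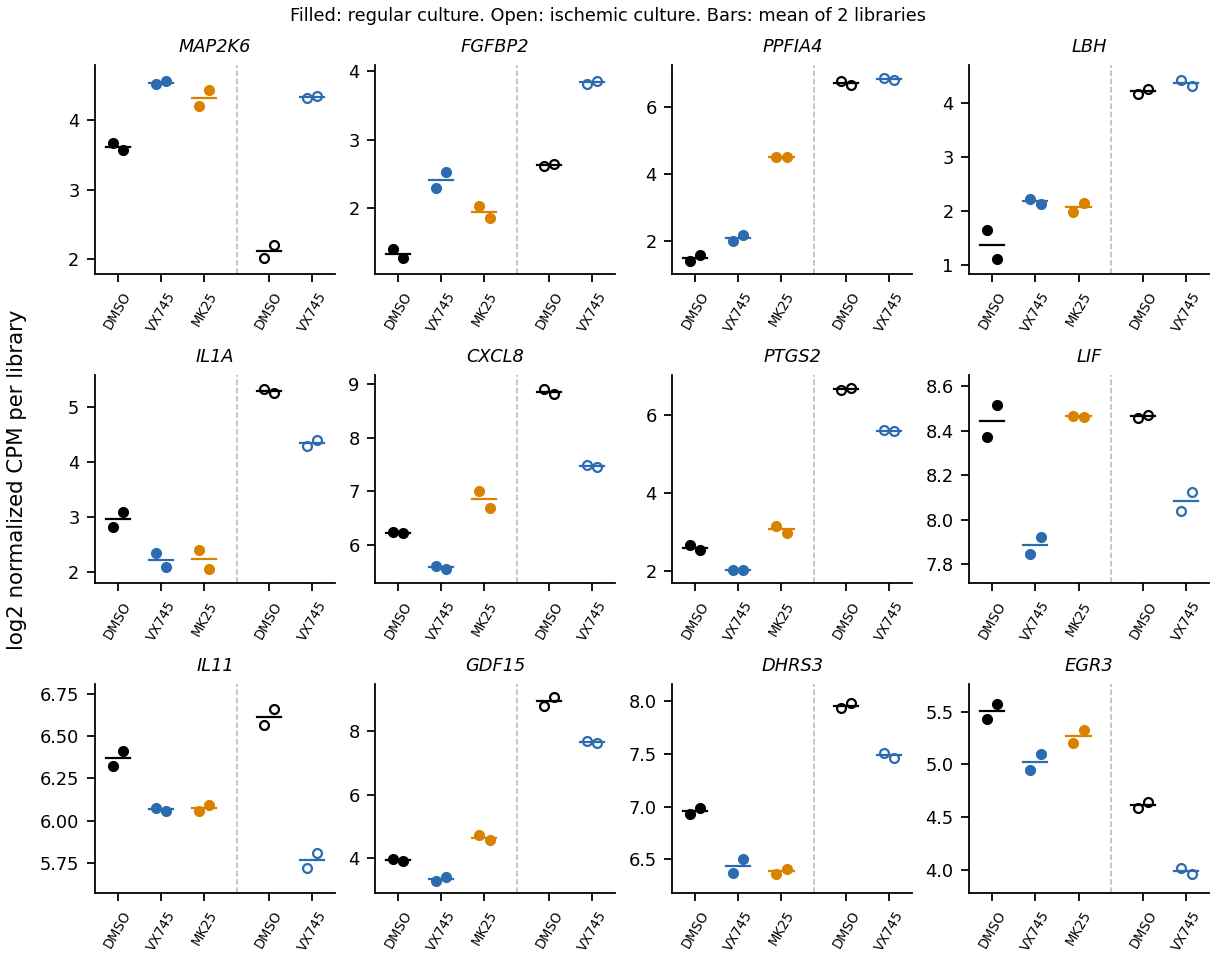
Each point is 1 library, with its log2 normalized CPM on the y axis (scales differ between genes), filled for regular and open for ischemic culture, and each bar is the mean of the 2 libraries. In regular culture *CXCL8*, *PTGS2* and *GDF15* were lower with VX745 and higher with MK25 than with DMSO, whereas *MAP2K6* was higher and *DHRS3* lower with both.

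*GDF15*, a stress-induced cytokine of the TGF-β superfamily at chr19:18386158-18389176 (GRCh38), was the 1 of 17 genes on the p53 target list past the test. That list does not hold every p53 target, and *DDB2*, which was higher past the test (0.26, adjusted p = 0.0325), is not on it. The level of *GDF15* was 3.99 and 3.92 log2 CPM under DMSO and 3.30 and 3.42 under VX745, a fall of 1.52-fold (−0.60, SE 0.09, adjusted p = 0.00422). Without regular VX745 replicate 1 its adjusted p was 0.0802. *TGFA*, a ligand of the EGF receptor and the most abundant transcript among the 22 lower genes, was at 9.39 and 9.51 against 9.15 and 9.15 (−0.30, SE 0.06, adjusted p = 0.0396).

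Among immediate early genes, which respond to growth factor and stress signals within minutes, 2 of 26 were lower past the test and none higher. Of the 26, 22 were negative, with a median of −0.17. Over all genes 51.5% were negative and 0.157% lower past the test. Other lists leaned the same way, such as MAPK phosphatases (11 of 12 negative), ERK output (15 of 17) and AU-rich element decay (14 of 16). Of 21 interferon response genes, 16 were positive. *EGR3*, a zinc finger transcription factor, was at 5.43 and 5.58 under DMSO and 4.94 and 5.09 under VX745 (−0.48, SE 0.08, adjusted p = 0.0154). *MCL1*, an antiapoptotic BCL2 relative on this list, was at 8.72 and 8.81 against 8.48 and 8.50 (−0.27, adjusted p = 0.0348). *ATF3* lay at the threshold, with −0.40 and an adjusted p of 0.0503. *FOS*, *JUN* and *EGR1* were at −0.10, −0.14 and −0.24 with adjusted p-values of at least 0.327. *PHLDA1* was the 1 of 17 ERK output genes past the test (−0.42, adjusted p = 0.0213), and *ZFP36L2*, a relative of tristetraprolin that promotes decay of AU-rich mRNAs, the 1 of 16 in its list (−0.34, adjusted p = 0.0396).

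*DHRS3* was one of the lower genes that held under every alternative, as did *INTS3*, described below. It encodes a retinal reductase of vitamin A metabolism and lies at chr1:12567910-12618210 (GRCh38). Its level was 6.93 and 6.99 log2 CPM under DMSO and 6.37 and 6.50 under VX745 (−0.52, SE 0.06, adjusted p = 0.000268), and it passed the test under all 12 alternatives run, with values between −0.59 and −0.46. The fall was 1.44-fold and thus under the threshold of 1.5.

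The other lower genes were of mixed function. They included *FGF12*, an intracellular FGF relative (−0.47), the T-box factor *TBX2* (−0.43), *LNPK*, a protein of endoplasmic reticulum junctions (−0.42), *LTBP3*, which binds latent TGF-β (−0.39), *TINAGL1*, a matrix protein (−0.34), *LRATD2* (−0.33) and the cytoskeletal kinase *ROCK2* (−0.29). Their adjusted p-values were between 0.0144 and 0.0471. *FGF12* was at 5.05 and 5.11 under DMSO against 4.61 and 4.59 under VX745, with little spread in either group.

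Of the raised genes, *FGFBP2*, a secreted FGF-binding protein, had the lowest adjusted p after *MAP2K6*. It was at 1.40 and 1.27 log2 CPM under DMSO and 2.29 and 2.52 under VX745, or 81 and 58 reads against 122 and 128 (2.10-fold, log2 1.07, SE 0.13, adjusted p = 0.000992). *PPFIA4*, which encodes a liprin scaffold protein, was at 1.40 and 1.58 against 1.99 and 2.19 (0.60, adjusted p = 0.00283). Both are expressed at a low level, and the groups did not overlap, which choosing genes past the test favors.

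The other raised genes at 1.5-fold were also weakly expressed. *CYTH4*, an exchange factor for ARF GTPases, had 26 and 24 reads under DMSO and 44 and 51 under VX745 (1.09, adjusted p = 0.0323). The long noncoding RNA *LINC01583* had 26 and 15 reads against 39 and 33 (1.01, adjusted p = 0.0124). *LBH*, a transcription cofactor, had 96 and 51 reads against 116 and 97 (0.80, adjusted p = 0.0325).

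The last of the group were *TMEM255A* (0.67), *RIMS3*, a synaptic scaffold relative (0.65), and *GAS6-AS1* (1.17), with adjusted p-values of 0.0348, 0.0213 and 0.0325. *GAS6-AS1* overlaps *GAS6* on the other strand, and the library kit does not mark strand, so the reads of the pair cannot be told apart. *GAS6* itself was at 0.10 (adjusted p = 0.783). Of the 9 raised genes, those other than *MAP2K6*, *FGFBP2* and *PPFIA4* passed the test in 1 of the 4 reduced fits.

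The 16 other higher genes rose by less than 1.5-fold. They included *AKR1C1*, an aldo-keto reductase and the 1 of 24 NRF2 targets past the test (0.57, adjusted p = 0.0325), which shares 29.1% of its 31-base words with *AKR1C2*. *PHGDH*, the first enzyme of serine synthesis, was the 1 of 29 ATF4 and CHOP targets (0.26, adjusted p = 0.0396). *BLVRA*, biliverdin reductase, was at 0.38, *DDB2*, a DNA damage sensor, at 0.26, *STEAP3*, a metalloreductase, at 0.37 and *TMSB4X*, the actin-binding thymosin β4, at 0.37. *SH3RF2*, *MARCHF2*, *ANK2*, *EPB41L1*, *SLCO4A1*, *TMA7* and *SFXN3* were between 0.27 and 0.51.

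Some of the largest values belong to genes with a second copy in the genome. *INTS3*, a subunit of the Integrator complex, had 182 and 78 reads under DMSO and 4 and 1 under VX745, which gave a log2 fold change of −4.74 (SE 0.44) that depends on the offset in the deposited values. Of its 31-base words, 84.5% also occur on alternate scaffolds of the assembly. *MAGED4* had 40 and 65 reads against 5 and 4 (−2.88, SE 0.51), and 100% of its words occur in *MAGED4B*. *COQ8A* (0.29), *WASHC2C* (0.32) and *PET100* (0.51) also share at least 50% of their words with another gene. How reads that match several places were counted is not stated. Leaving out the genes with a second copy among those checked left 9 raised and 3 lowered genes.

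Other pathways showed no member past the test. These were the MAPK phosphatases (12 listed genes), extracellular proteases (14), TGF-β and YAP targets (19), SRF and actin genes (17), AHR targets (7), the S phase (24) and G2 and mitosis genes (24) of the cell cycle, sterol synthesis (19), hypoxia and glycolysis (30), endoplasmic reticulum chaperones (22), the interferon response (21) and cytosolic heat shock proteins (16). Their medians lay between −0.15 for the phosphatases and 0.09 for the interferon genes. In all, 13 of the 397 list members present in the table passed the test.

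Larger values in those lists were also unresolved, as examples with a mean of 1 CPM or more show. That mean is over the 4 regular DMSO and VX745 libraries. *DUSP2* and *DUSP9*, phosphatases of MAP kinases, had −0.47 (SE 0.34) and −0.37 (SE 0.30), while the abundant *DUSP4* had −0.28 (SE 0.06, adjusted p = 0.0547). *STARD4*, a sterol carrier, had −0.42 (adjusted p = 0.0805), *CCNE2*, a cyclin of S phase entry, −0.36 (adjusted p = 0.0773) and *SLC2A1*, the glucose transporter GLUT1, −0.23 (adjusted p = 0.0837). Without regular DMSO replicate 1 *STARD4* passed the test (adjusted p = 0.0447), as did *TYMS* (0.54), *HSPE1* (0.58) and *TPM4* (0.33). *IFIT1* and *IFIT2*, interferon-induced genes, had 0.64 and 0.52 with SEs of 0.26. *MMP1* had 0.49 (SE 0.19), *ADAMTS5* −0.48 (SE 0.20), *ANKRD1* −0.42 (SE 0.32) and *CYP1B1* −0.23 (SE 0.18). Some members under 1 CPM had larger values that did not pass the test, among them the hypoxia genes *CA9* (−0.94, SE 0.38) and *ANKRD37* (0.54, SE 0.15) and the actin-binding *CNN1* (0.42, SE 0.35).

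AU-rich elements were counted in the 3′ UTRs of the genes past the test. The nonamer TTATTTATT, a core of such elements in the DNA letters of the transcript strand, occurs in the 3′ UTR of 8 of the 22 lower genes (36.4%), of 1 of 23 higher genes with a 3′ UTR (4.35%) and of 1247 of 12546 listed genes (9.94%). The stretches around it in the lower genes are shown because decay through them is one of the routes by which p38 and MK2 are known to act. Each is 30 bases long, 5′ to 3′ on the transcript strand, with the nonamer in capitals (runs of overlapping nonamers together). They were read from GRCh38 at chr4:73742664-73742693 for *CXCL8*, chr19:18389054-18389083 for *GDF15*, chr1:186674316-186674345 for *PTGS2*, chr22:30240957-30240986 for *LIF*, chr12:76029786-76029815 for *PHLDA1*, chr2:43223447-43223476 for *ZFP36L2*, chr19:55365946-55365975 for *IL11* and chr2:70450232-70450261 for *TGFA*, the first 2 on the plus strand and the others on the minus strand.
CXCL8: atgtaaagtaTTATTTATTtgaatctacaa
GDF15: tataagtctgTTATTTATTattaatttatt
PTGS2: atgatcatatTTATTTATTtatatgaacca
LIF: ctccgggcccTTATTTATTatttaaacatt
PHLDA1: tgatttatgaTTATTTATTagttttttttt
ZFP36L2: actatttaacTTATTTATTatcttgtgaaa
IL11: aagccagatcTTATTTATTTATTTATTtca
TGFA: agatgatgtcTTATTTATTagatggataat

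*IL11* holds 6 nonamers, *LIF* 2 and the others 1, and the only higher gene with one is *ANK2*. *PTGS2* also holds 22 ATTTA pentamers, beside 9 in *CXCL8*. *IL1A* has no nonamer but 5 pentamers. A match is a description of the letters and not a site shown to be used.

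Over all genes the nonamer went with slightly lower values. The median log2 fold change was −0.004 in 11299 genes with none, −0.05 in 946 genes with 1 and −0.06 in 301 genes with 2 or more, and 51.0%, 66.5% and 65.8% of these genes were negative. The 3′ UTR length moved with the same difference, with a median of 2239.5 bases in the lower genes, 1369 in all and 807 in the higher genes. Among genes with a 3′ UTR at or over the median length, 65.5% of those with a nonamer and 57.1% of those without were negative, and under that length 69.5% and 45.7%. The lean was not particular to VX745 in regular culture. For MK25 in regular culture, which shares the DMSO libraries, the medians were 0.0008, −0.033 and −0.026 for none, 1 and 2 or more nonamers. For VX745 in ischemic culture they were −0.003, −0.017 and −0.057. The part of length or RNA quality in these values was not tested.

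**Figure D4:**
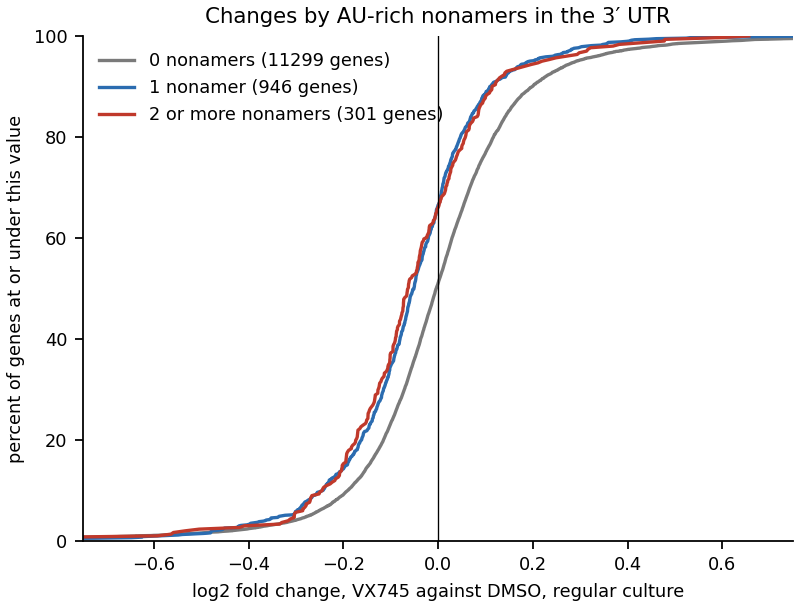
Each curve gives the percent of genes (y axis) with a log2 fold change between VX745 and DMSO in regular culture at or under the value on the x axis, for genes with 0, 1 and 2 or more AU-rich nonamers in the 3′ UTR. The curves of genes with a nonamer lie to the left, with medians of −0.05 for 1 and −0.06 for 2 or more against −0.004 for none.

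Promoters were searched in the same way. The AP-1 motif TGANTCA (read the same on both strands) lies within the 250 bases before and 50 after the start of 3 of 15 lower genes with a promoter in the RefSeq table, of none of 22 higher genes and of 522 of 11087 listed genes (4.71%), and 7.71% of all 35116 promoters hold it. The cyclic AMP response element TGACGTCA, a motif bound by ATF2 and its relatives, lies in none of the 15 lower and none of the 22 higher promoters, beside 3.24% of listed genes and 1.85% of all promoters. The TATA motif TATAAA, counted on both strands, lies in 5 of the 15 lower (33.3%) and 2 of the 22 higher promoters (9.09%), beside 5.77% of listed genes and 11.5% of all promoters. The 60 bases around the AP-1 motif in these 3 genes are shown 5′ to 3′ on the gene's strand, from RefSeq promoters on GRCh38.p14, with the motif in capitals, at chr2:112784473-112784532 for *IL1A* and chr19:55370527-55370586 for *IL11* on the minus strand and chr4:73740405-73740464 for *CXCL8* on the plus strand. All 3 are among the 5 lower inflammatory genes described above.
IL1A: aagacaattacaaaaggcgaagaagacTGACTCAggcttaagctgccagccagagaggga
CXCL8: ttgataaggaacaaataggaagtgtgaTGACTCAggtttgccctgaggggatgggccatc
IL11: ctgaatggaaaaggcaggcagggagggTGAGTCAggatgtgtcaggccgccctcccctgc

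The same compound in ischemic culture, with its own DMSO libraries, gave a larger response that partly shared these genes. Of the 22 lower genes 13 were also lower past the test there, where 14.9% of all genes were, and of the 25 higher genes 14 were also higher, where 14% of all genes were. Of the 14 genes called in regular culture, 8 were called in the same direction in ischemic culture, which is 57.1% of the former and 1.09% of the 737 genes called in the latter (5.26% of all genes). Across the 13293 genes at 1 CPM or more the log2 fold changes of the cultures had a Pearson r of 0.18, given as a description over genes, which are not independent.

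Several of these genes differed in size between the cultures by the interaction test, in which 1653 genes (11.8%) passed. *MAP2K6* was at 2.02 and 2.21 log2 CPM in ischemic DMSO and at 4.32 and 4.35 in ischemic VX745, a rise of 2.22 that exceeds the one in regular culture by 1.30 (SE 0.14, adjusted p = 6.94e-05). *CXCL8* fell by 1.39 in ischemic culture, 0.74 further than in regular culture (adjusted p = 0.00115). *GDF15* fell by 1.27 and *PTGS2* by 1.07, against 0.60 and 0.58 (adjusted p of the difference 0.00294 and 0.0124), and *IL11* by 0.85 against 0.30 (adjusted p = 0.000992).

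Others did not differ beyond the error. The interaction of *LIF* was 0.18 (95% interval −0.02 to 0.37), that of *DHRS3* 0.05 (−0.12 to 0.22), that of *IL1A* −0.20 (−0.58 to 0.18) and that of *FGFBP2* 0.14 (−0.26 to 0.54). *ZFP36L2* and *LRATD2* went the other way in ischemic culture, at 0.47 and 0.36 (adjusted p of the interaction 0.000131 and 7.65e-05), and so did *TMSB4X* (−0.36) and *PET100* (−0.38). In all, 25 of the 47 genes passed the interaction test. Of these, 9 had a larger change of the same sign in ischemic culture, and 16 were nearer 0 or of the other sign there. The interaction contains the regular-culture change by which the 47 were chosen, so the count is not independent of that choice.

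**Figure D5:**
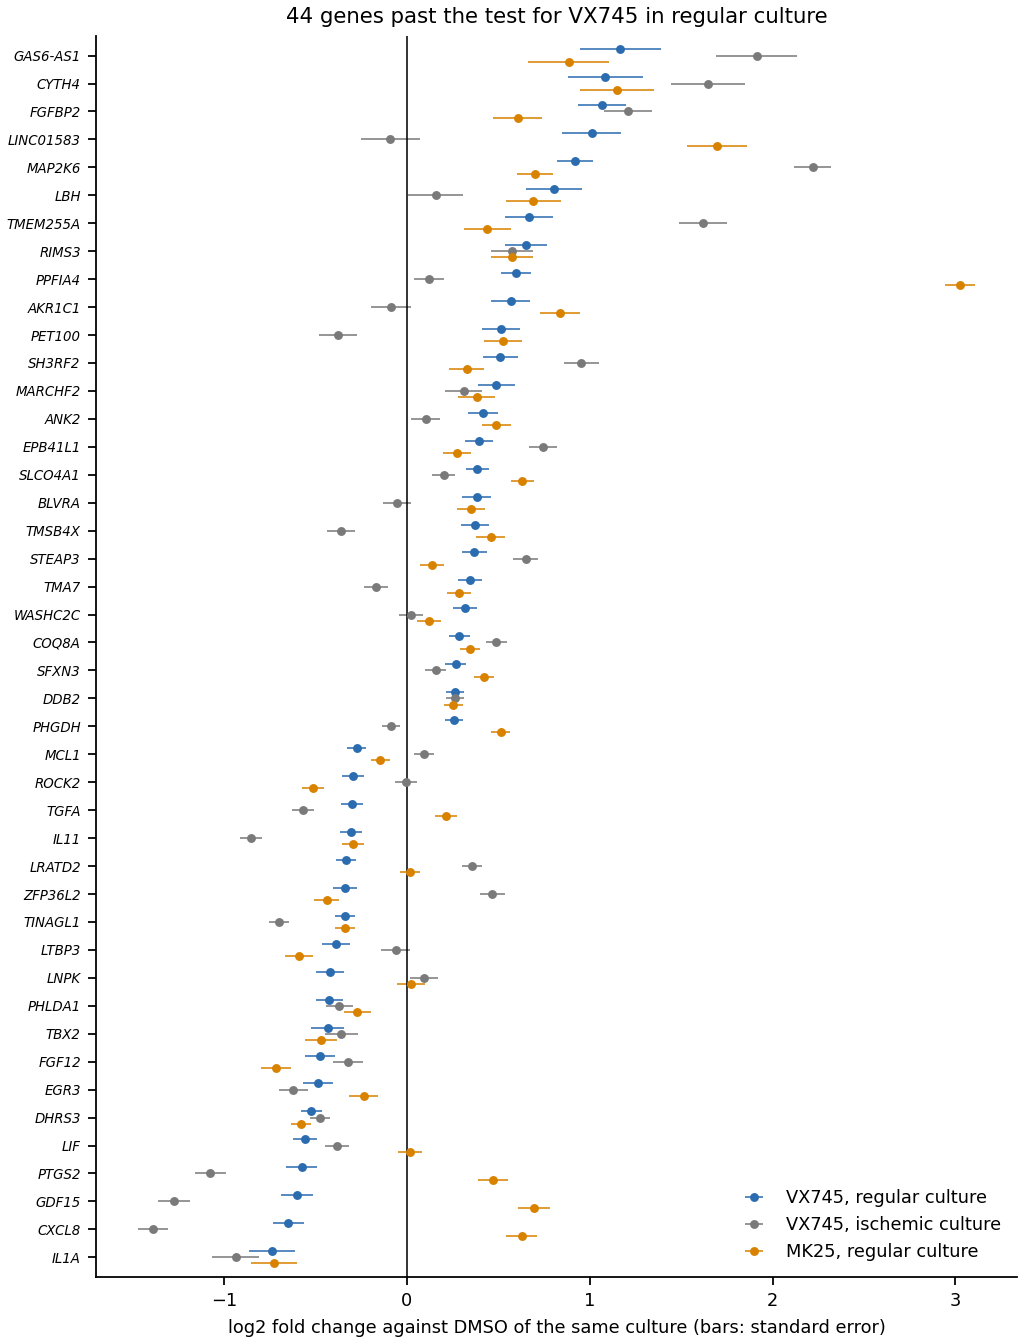
Each row is 1 of 44 genes past the test for VX745 in regular culture, without *INTS3* and *MAGED4*, and each point is a log2 fold change against DMSO of the same culture with its standard error as a bar, for VX745 in regular culture (blue), VX745 in ischemic culture (grey) and MK25 in regular culture (orange). *MAP2K6* is further right in ischemic culture, at 2.22, and *PPFIA4* with MK25, at 3.03, while *CXCL8*, *GDF15*, *PTGS2* and *TGFA* lie left of 0 with VX745 and right of 0 with MK25.

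The values for MK25 in regular culture share the DMSO libraries with those for VX745 and are given side by side. *CXCL8* was above DMSO by 0.63 on the log2 scale with MK25 (adjusted p = 6.84e-05) and fell by 0.65 with VX745, and both MK25 libraries lay above both DMSO libraries. *GDF15* was at 0.69 and *PTGS2* at 0.47 with MK25 (adjusted p = 4.08e-05 and 0.0012), and *TGFA* at 0.21 (adjusted p = 0.027). *LIF* was at 0.02, with a 95% interval from −0.12 to 0.16. *IL1A*, *DHRS3*, *IL11* and *MAP2K6* were at −0.73, −0.58, −0.30 and 0.70 with MK25, with adjusted p-values of at most 0.00367.

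The direct test between the inhibitors uses no DMSO library and compares the 2 VX745 with the 2 MK25 libraries, in which 756 genes (5.39%) passed. Of the 47 genes, 13 passed it, but they were chosen with the same 2 VX745 libraries, so this count is not independent of that choice. *CXCL8* was lower with VX745 than with MK25 by 1.27 (log2 −1.27, SE 0.08, adjusted p = 7.55e-09), *GDF15* by 1.29 (log2 −1.29, adjusted p = 1.25e-08), *PTGS2* by 1.05 (log2 −1.05, adjusted p = 1.25e-07) and *LIF* by 0.58 (log2 −0.58, adjusted p = 1.33e-05). *PPFIA4* differed most, at −2.43 (adjusted p = 1.82e-12). Among the others, *TGFA* differed by −0.52, *LINC01583* by −0.68, *LNPK* by −0.45, *LRATD2* by −0.35, *PHGDH* by −0.26, *SLCO4A1* by −0.25 and *ROCK2* by 0.22. No difference was detected for *IL1A* (−0.01, 95% interval −0.28 to 0.26), *IL11* (−0.01, −0.14 to 0.12), *DHRS3* (0.06, −0.06 to 0.17) or *MAP2K6* (0.22, 0.01 to 0.43, adjusted p = 0.265). The methods list a different dose for each inhibitor, so the compounds were not compared at a matched dose.

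Lists with many members past the test under MK25 had few or none under VX745. Of 19 sterol synthesis genes, 19 were higher past the test with MK25 (median 1.36), as were 7% of all genes, and none with VX745 (median −0.05). Of 30 hypoxia and glycolysis genes, 28 were higher with MK25 (median 0.91) and none with VX745 (median 0.04). Of 29 ATF4 and CHOP targets, 22 were higher with MK25 (median 0.39), and only *PHGDH* was with VX745 (median 0.03).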

How the data were processed

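RNA of LN229 cells was sequenced by the authors with paired ends after library preparation with the SMART-Seq mRNA HT and Nextera XT kits. Reads were trimmed and aligned to GRCh38 with HISAT2 in Galaxy, and the authors named edgeR for differential expression. The counting program is not given in the sources used here. The deposited values are log2 normalized CPM per gene and library, and they include a small offset of about 2 reads, which shrinks the fold changes of weakly expressed genes. In all 12 libraries 100% of the unlogged values fell on whole reads (tolerance 0.1), which gave the depth per library, between 20122017 and 37562668 reads on 14024 genes. Floors and read numbers cover counting error only.

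The values were used as deposited, without a further logarithm or filter. Fold changes came from limma 3.58.1 in R 4.3.3, with 1 mean for each of 6 groups of 2 libraries and a trend of the variance on the level. All tests were two-sided, with Benjamini-Hochberg adjustment over the 14024 genes. Symbols, for 13927 of 14024 genes, and promoters came from RefSeq, and 3′ UTRs from GENCODE on GRCh38. Matching words of 31 bases marked second copies at 50% or more, checked only for the genes past the test and the largest interactions. Python 3.11.15 drew the figures.

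The named genes are all genes called at 1.5-fold, members of the lists past the test, all members of the p38 cascade, the 2 largest members averaging at least 1 CPM of a list without any, and the 5 largest interactions, apart from items not reported here. The average for the 2 largest members is over the 4 regular DMSO and VX745 libraries. Other genes past the test, near it or compared with the named genes were named after their values were seen. The members and lists were chosen with earlier results of these data known. The alternatives tried were other thresholds, a filter at 1 CPM, other normalizations, no variance trend, only the groups compared, a replicate block and each library left out. A voom fit on the recovered reads and a fit without second copies were added after seeing the data.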

Additional observations from a re-analysis of the deposited data

Results flagged for a closer look

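Groups held 2 libraries, too few for a test of outlying libraries. Of 96 genes named by rule or past the test, 37 had a response to VX745 that differed between ischemic and regular culture by the interaction test (limma, adjusted p under 0.05), given here as the log2 fold change in ischemic minus that in regular culture. Many of the 96 were chosen by values that enter the interaction, so this count is not independent of that choice.

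Differences above 0 were 1.3 for *MAP2K6*, 0.69 for *MAP2K3*, 0.35 for *MAPK14*, 0.31 for *RPS6KA4* and 0.3 for *TAB1* within the p38 cascade, of which only *MAP2K6* passed the test in regular culture. Further ones were 1.55 for *IFIT1*, 0.95 for *TMEM255A*, 0.8 for *ZFP36L2*, 0.69 for *LRATD2*, 0.51 for *LNPK*, 0.48 for *ASPM*, 0.44 for *SH3RF2*, 0.37 for *MCL1*, 0.35 for *EPB41L1* and 0.29 for *ROCK2*.

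Differences below 0 were −0.74 for *CXCL8*, −0.67 for *GDF15*, −0.55 for *IL11*, −0.5 for *PTGS2* and −0.36 for *TINAGL1*, all of which fell in both cultures. Others were −1.1 for *LINC01583*, −0.89 for *PET100*, −0.73 for *TMSB4X*, −0.65 for *HSPE1*, −0.65 for *AKR1C1*, −0.51 for *TMA7*, −0.48 for *PPFIA4*, −0.44 for *BLVRA*, −0.34 for *TPM4*, −0.34 for *PHGDH*, −0.29 for *WASHC2C*, −0.29 for *ATF2* and −0.28 for *MKNK2*.

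Among the largest interactions were 7.22 for *CD99*, 4.32 for *INTS3*, 3.43 for *METRNL* and 3.33 for *MAGED4*. At least 84.5% of the 31-base words of *INTS3*, *METRNL* and *MAGED4* occur elsewhere in the assembly, and *CD99* lies in the pseudoautosomal region of X and Y. How reads that match several places were counted is not stated, and its part in these values was not tested.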

How the results depend on the processing

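For VX745 in regular culture, 9 genes were raised and 5 lowered. The counts were 134 and 106 at an unadjusted p under 0.05, 25 and 22 with no fold threshold, 4 and 2 at 2-fold, 4 and 1 without the variance trend and 2 and 3 with voom, which passed 13 genes, all of them among the 47. Only the groups compared gave 1 raised gene and 4 lowered ones, with 9 genes past the test at any fold, 7 of them among the 47. The fit without second copies gave 3 lowered. With a library left out, between 2 and 73 genes were raised and between 3 and 70 lowered, the high values coming without regular DMSO replicate 1. The interaction count of 1653 became 3813 at an unadjusted p, 433 at 1.5-fold, 1026 after quantile normalization, 594 without the trend and 601 to 2038 with libraries left out. VX745 in ischemic culture had 737 genes, 4051 with no fold threshold and 193 at 2-fold. MK25 had 349, then 559 at an unadjusted p, 1712 with no fold threshold, 116 at 2-fold and 268 to 546 with libraries left out. VX745 against MK25 had 205, then 359, 756 and 86 under the same 3 changes. Other alternatives stayed within 1.5 times, the normalizations giving 9 and 6 (median) and 7 and 7 (quantile). The edgeR and DESeq2 fits planned on recovered reads were not run, and voom was run on those reads in their place.

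None of the 47 genes changed sign in any alternative. *MAP2K6*, *DHRS3* and *INTS3* passed the test in all that were run for them, *CXCL8*, *LIF* and *FGFBP2* failed 1 of 12, and 36 genes failed 5 to 8. Among the other named genes, the sign turned in 14 when a library was left out and in 2 under other settings, with an adjusted p of at least 0.649 where it did. Quantile normalization gave *TAB2* 0.012 and voom *MAPKAPK5* −0.0019. With each of the 4 regular libraries left out in turn, values ran from −0.10 to 0.028 for *MAPK12*, −0.11 to 0.069 for *MAP2K4*, −0.025 to 0.033 for *MAP3K5*, −0.088 to 0.068 for *TAB2*, −0.044 to 0.048 for *MAPKAPK5*, −0.079 to 0.14 for *MKNK1*, −0.24 to 0.0051 for *CREB1*, −0.016 to 0.069 for *ATF2*, −0.17 to 0.0040 for *MEF2D*, −0.86 to 0.12 for *DUSP9*, −0.87 to 0.033 for *ANKRD1*, −0.092 to 0.33 for *TAGLN*, −0.067 to 0.54 for *TYMS* and −0.058 to 0.58 for *HSPE1*. *TYMS* and *HSPE1* (both without regular DMSO replicate 1) passed the test at the far end of that range. The cause was not tested.

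Replicate numbers were not treated as pairs in the main fit. The deviations of same-numbered libraries correlated at r = 0.0188 between the regular VX745 and DMSO groups. They correlated above 0.1 in 2 of 15 pairs of groups, at most 0.178. Such values cannot show whether same-numbered libraries were handled together, which the labels do not state. With the replicate number as a block, 9 genes were raised and 7 lowered, and 45 of the 47 passed the test.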
